A study of Mus musculus with 4 samples.

Results

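The nuclei described here are parvalbumin-type interneurons of the mouse hippocampus: 288 of 32572 barcodes with at least 5000 unique molecular identifiers (UMIs, each standing for 1 captured RNA molecule). The members were chosen by measured UMI counts: a barcode was taken when it held at least 3 UMIs of Gad1 and Gad2 together, at least 1 of Pvalb, at least 2 of Lhx6 and Sox6 together, and at most 1 each of Sst, Lamp5, Vip and Slc17a7. Single-nucleus RNA sequencing on an Illumina NovaSeq instrument was done on hippocampus of adult mice in 4 libraries. Control libraries 1 and 2 came from Kat6a-f/f mice, in which both copies of the histone acetyltransferase gene Kat6a are floxed and the labels name no Cre. Kat6a-cKO libraries 1 and 2 came from mice that carry the same floxed alleles together with NEX-cre. NEX-cre places Cre recombinase at Neurod6, a gene of forebrain excitatory neurons, so parvalbumin-type interneurons are not the neurons it is known to recombine. The labels do not say how many animals went into a library or whether libraries of a group are separate animals, so a p-value measures the spread between these libraries only.

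Parvalbumin-type interneurons release GABA onto the cell bodies, proximal dendrites or axon initial segments of pyramidal neurons and fire trains of brief action potentials at high frequency. They arise in the medial ganglionic eminence, as do the somatostatin interneurons, and both keep the transcription factors Lhx6 and Sox6. Fast repolarisation by Kv3 potassium channels, parvalbumin as a calcium buffer, a perineuronal net of chondroitin sulphate proteoglycans, and excitatory synapses that depend on the neuregulin receptor Erbb4 are among their known features. Hippocampal members include basket, bistratified and axo-axonic (chandelier) cells.

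The 4 libraries held 69, 61, 80 and 78 members, in the order Control 1, Control 2, Kat6a-cKO 1 and Kat6a-cKO 2, which is kept for every set of 4 values below. Library totals ran from 171323466 to 186897245 counts, and the members' counts, summed per library, from 1344088 to 1625933. Median UMIs per member ran from 18729.5 to 20707. None of the member barcodes was a member in a second library, although 15 to 20 barcodes of at least 5000 UMIs were shared by each pair of libraries. An entry for the cre transgene had 0 and 0 counts in excitatory nuclei of Control and 84 and 92 in those of Kat6a-cKO, or 1.98 and 1.74 CPM (counts divided by the summed counts of those nuclei and scaled to 1e6). In the parvalbumin-type sums it had 0, 0, 0 and 2 counts, and a count of 0 allows a level of up to 1.86, 2.23 and 1.85 CPM in the first 3 libraries. The 2 counts of Kat6a-cKO 2 amount to 1.32 CPM.

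Gad1 and Gad2, which make GABA, Pvalb, Lhx6 and Sox6 chose the nuclei, so their levels describe the choice and no test of them is reported. Pvalb stood at 107.0, 94.5, 105 and 116 CPM, Lhx6 at 36.5, 32.0, 47.4 and 40.8 CPM, and Sox6 at 762, 585, 611 and 602 CPM. Of the 288 nuclei, 116 held a single Pvalb UMI and 172 held 2 or more, with a highest value of 11. A Pvalb UMI was found in 3.13%, 2.46%, 2.34% and 1.82% of excitatory nuclei, whose median depth of 18953 to 20223.5 UMIs was near that of the members. Among nuclei that met every other condition the share with a Pvalb UMI was 52.3%, 51.3%, 44.9% and 54.2%.

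Markers of other cell types were looked at among genes that the choice did not cap, since Sst, Vip, Lamp5 and Slc17a7 were held low by it. Calb2 and Ndnf, which mark other interneurons, were at 2.47 CPM or less in every library, and Chodl had no counts. Other uncapped genes of such neurons were higher. Grin3a averaged 70.1 ± 16.2 CPM and Elfn1 43.1 ± 3.93 CPM in members (SD, n = 4 libraries). In the Sst-type nuclei described below these genes averaged 590 and 396 CPM. Reln averaged 51.3 ± 40.4 CPM and Cck 42.5 ± 6.6 CPM in members. The 5 excitatory markers, with the capped Slc17a7 among them, summed to 308, 281, 278 and 291 CPM in members against 1009 to 1132 CPM in excitatory nuclei, and Camk2a, a kinase gene of excitatory neurons, made up 247 to 272 CPM of the members' sum. The 4 microglial markers summed to 98.6 to 114 CPM, while near-empty droplets held 2483 to 3064 CPM. These sums were even over the libraries, and their part in the results below was not tested. Adarb2, a marker of Vip-type and Lamp5-type neurons, stood at 492 CPM in Control 1 and at 8.18, 76.3 and 51.3 CPM in the other libraries. In Control 1 a single nucleus held 762 of its 795 counts, and 1 nucleus held 65 of the 81 counts of the cannabinoid receptor gene Cnr1. In all, 15 of the 288 nuclei (7, 1, 5 and 2 per library) carried at least 5 UMIs of 4 astrocyte genes, 10 of 4 oligodendrocyte genes, 5 of 3 oligodendrocyte precursor genes or 20 of 5 Vip-type genes.

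**Figure D1:**
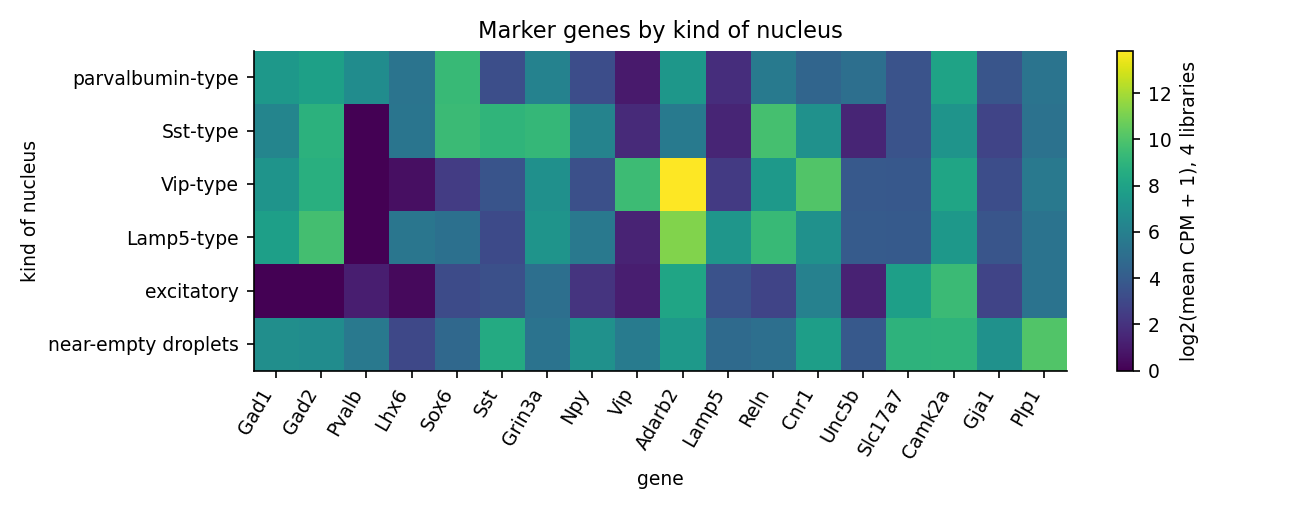
Mean level of 18 marker genes (columns) in 5 kinds of nuclei and in near-empty droplets of 100 to 900 UMIs (rows), as log2 of the mean CPM over the 4 libraries plus 1. Gad1, Gad2, Pvalb, Lhx6 and Sox6 chose the nuclei of the parvalbumin-type row. In that row Lhx6 (mean 39.2 CPM) is below Reln (51.3 CPM) and Grin3a (70.1 CPM), and Camk2a is above Pvalb (106 CPM). Gad2 and Sox6 are higher in the Sst-type row (477 and 684 CPM) than in the parvalbumin-type row (235 and 640 CPM). The Adarb2 value of the parvalbumin-type row rests on the library with 492 CPM.

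Nuclei just outside the Pvalb condition were set beside the members. Across the libraries 63, 58, 98 and 66 nuclei met every other condition with 0 Pvalb UMIs. Erbb4 averaged 11003 ± 179 CPM in members, 10890 ± 446 CPM in members with 1 Pvalb UMI and 9804 ± 929 CPM in nuclei with 0 (SD, n = 4 libraries), but 1489 ± 659 CPM in Sst-type nuclei. The potassium channel gene Kcnc1 averaged 372 ± 13.7 CPM, 315 ± 20.0 CPM and 248 ± 21.4 CPM over the same 3 sets, and Syt2, a calcium sensor of fast transmitter release, 128 ± 34.9 CPM, 97.0 ± 33.0 CPM and 35.6 ± 13.3 CPM. Reln, which encodes the secreted protein reelin, went the other way, with 51.3 ± 40.4 CPM in members and 264 ± 69.9 CPM in nuclei with 0 Pvalb UMIs. So did the Sst-type markers Grin3a (70.1 against 200 CPM), Elfn1 (43.1 against 132 CPM) and Npy (8.51 against 25.2 CPM). Median depth was 13868 to 17373 UMIs in nuclei with 0 Pvalb UMIs and 18729.5 to 20707 in members. The part of depth in these differences was not tested. The nuclei with 1 Pvalb UMI are part of the members.

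Parvalbumin-type nuclei were compared with Sst-type nuclei, the closest kin among interneurons, to show which of their genes set them apart. The 311 Sst-type nuclei (78, 69, 94 and 70) had at least 2 Sst UMIs, no Pvalb UMI and otherwise the same conditions, and their median depth of 16304.5 to 19075 UMIs was lower. The 9 genes used by either rule were left out of the test. With edgeR's quasi-likelihood test on summed counts, library as a block and a Benjamini-Hochberg adjusted p under 0.05, 2499 of 9528 genes (26.2%) differed, 1296 higher (13.6%) and 1203 lower (12.6%) in parvalbumin-type nuclei. DESeq2 called 1397 genes, each of them among the 2499. Of 99 list genes called, 17 lost the call in at least 1 alternative, and DESeq2 lost each of these 17. Without the TMM scaling factors (trimmed mean of M-values) the split was 1170 higher and 1360 lower.

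Ion channels of fast spiking were mostly higher. Of 22 listed genes 21 were tested, 18 were higher and 1 was lower. Their median log2 difference was 0.85 against -0.01 over all genes. Over all genes 13.6% were higher and 12.6% lower, and these shares go with each list count below. The lists were chosen with earlier results of these data known, so their counts are descriptions only. Of the 18 higher genes, Kcnab3 passed the filter on low counts through parvalbumin-type sums alone, every Sst-type sum holding under 10 counts. The count and the median include it. Among the higher genes Hcn2 lost the call in 3 of 13 alternatives and Kcns3 in 2. Kcnc1, a Kv3 channel subunit, was at 393, 369, 378 and 390 CPM after TMM scaling in parvalbumin-type nuclei and at 150, 131, 138 and 146 CPM in Sst-type nuclei. No library of one kind overlapped the other, and the log2 difference was 1.44 ± 0.07 (SE; edgeR adjusted p = 3.3e-11). The axonal Kv1 channel gene Kcna1 differed by 1.46 ± 0.18, its auxiliary subunit gene Kcnab1 by 1.54 ± 0.08, the Kv4-binding Kcnip2 by 2.08 ± 0.23 and the sodium channel gene Scn1a by 0.93 ± 0.07, all on the log2 scale. Kcnc2, a Kv3 subunit, was higher by only 0.25 ± 0.07, and it lost the call with DESeq2, with members of at least 2 Pvalb UMIs and without Control 2 (0.20, edgeR adjusted p = 0.061). Cacna1b, the N-type calcium channel gene known for transmitter release from cholecystokinin interneurons, was lower by 0.37 (SE 0.07), while the P/Q-type gene Cacna1a was higher by 0.43 ± 0.07.

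In the release machinery 6 of 16 tested genes were higher and 6 were lower, with a median of 0.02, against 13.6% and 12.6% of all genes. Snap25 and Vamp2 (both lower) lost the call in 3 and 2 of 13 alternatives, and Rims2 (higher) in 1. Syt2 was at 181, 98.4, 115 and 130 CPM in parvalbumin-type nuclei and at 13.7, 10.0, 4.50 and 6.38 CPM in Sst-type nuclei. Its groups were far apart, with a log2 difference of 3.92 ± 0.17 (edgeR adjusted p = 5.2e-12). Syt2 overlaps Ppp1r12b in the annotation, and whether the counting used strand is not given in the sources used here. The vesicle fusion genes Vamp1 (0.85 ± 0.19) and Cplx1 (0.66 ± 0.08) and the GABA-degrading Abat (0.83 ± 0.09) were higher as well. Lower were Cplx2 (-1.12 ± 0.11) and Unc13c (-3.91 ± 0.25), a priming factor that was at 11.5 CPM or less in every parvalbumin-type sum and at 66.2 to 124 CPM in Sst-type sums. Complexins thus differed in opposite directions, Cplx1 higher and Cplx2 lower.

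GABA receptor subunits differed in both directions, with 6 of 13 higher and 4 lower, against 13.6% and 12.6% of all genes. Gabrg3, a gamma subunit gene, was at 3620, 3761, 3848 and 3290 CPM against 690, 594, 942 and 508 CPM, a log2 difference of 2.44 ± 0.09 (edgeR adjusted p = 7.9e-13). Gabrd, the delta subunit of extrasynaptic receptors, differed by 3.18 ± 0.31, but it passed the filter on low counts through parvalbumin-type sums alone, since every Sst-type sum held under 10 counts. The alpha subunit genes parted, Gabra4 (1.22 ± 0.12) being higher and Gabra2 (-1.68 ± 0.11) and Gabra3 (-0.61 ± 0.09) lower. Gabra2 stood at 36.9, 40.1, 44.7 and 33.3 CPM in parvalbumin-type nuclei and at 123, 113, 140 and 121 CPM in Sst-type nuclei.

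Of 22 glutamate receptor and auxiliary subunit genes tested, 8 were lower and 3 higher, with a median of -0.22. Over all genes 12.6% were lower and 13.6% higher, so the share of higher genes was that of all genes. Grin3a, an NMDA receptor subunit that lowers calcium entry and is known from somatostatin neurons, was at 75.8, 91.6, 53.8 and 66.5 CPM against 566, 597, 595 and 615 CPM (log2 difference -3.06 ± 0.10, edgeR adjusted p = 2.1e-13). The metabotropic receptor gene Grm7 (-2.53 ± 0.10), the kainate receptor gene Grik1 (-1.93 ± 0.08) and the NMDA subunit gene Grin2a (-1.01 ± 0.07) were lower too. The AMPA receptor subunit Gria4 (0.37 ± 0.06) and the AMPA receptor partners Cacng2 (0.77 ± 0.09) and Shisa9 (0.98 ± 0.13) were higher. Gria1, Gria2 and Gria3, the other AMPA receptor subunits, had log2 differences between -0.03 and 0.08 and did not pass the test.

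The perineuronal net list had 13 genes, of which 9 were tested, 6 were higher and 2 lower, with a median of 1.13. Acan, the core proteoglycan aggrecan, was at 19.7, 12.1, 20.1 and 20.6 CPM in parvalbumin-type nuclei and at 0.652, 0, 1.29 and 0.797 CPM in Sst-type nuclei. Acan and Hapln4, 2 of the 6 higher genes, passed the filter through parvalbumin-type sums alone, so the filter itself favoured their direction. The count and the median include them. Over all genes 13.6% were higher and 12.6% lower. The matrix protease gene Adamts15 (3.53 ± 0.32), the link protein genes Hapln4 (1.78 ± 0.30) and Hapln1 (1.13 ± 0.25), the lectican Bcan (1.70 ± 0.17) and tenascin-R (Tnr, 1.01 ± 0.07) were higher. Ptprz1, a receptor phosphatase that binds these proteoglycans, was lower (-1.74 ± 0.12), and Ncan was at -0.48 ± 0.15 but lost the call with DESeq2 (adjusted p = 0.21) and without Control 2 (-0.30, edgeR adjusted p = 0.17).

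Synapse partners were led by Erbb4, at 11282, 10972, 11652 and 11344 CPM in parvalbumin-type nuclei against 1611, 712, 2358 and 1335 CPM in Sst-type nuclei. The log2 difference was 3.02 ± 0.16 (edgeR adjusted p = 9.2e-11), and the Sst-type libraries varied over 3 times among themselves while the parvalbumin-type ones did not. Cntnap4 (1.69 ± 0.09), Lgi2 (1.44 ± 0.15) and Cntnap2 (0.57 ± 0.07) were higher, 3 adhesion or ligand genes of the synapse and axon. The neurexin gene Nrxn3 (-0.71 ± 0.05) and the ligand gene Nrg1 (-1.29 ± 0.14) were lower. In all, 4 of 15 tested were higher and 5 lower, against 13.6% and 12.6% of all genes. Of the lower genes Tenm2 lost the call in 2 of 13 alternatives and Nrxn2 in 1.

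Receptors for neuromodulators divided by gene, with 5 of 14 higher and 6 lower, against 13.6% and 12.6% of all genes. Htr4 (higher) lost the call in 3 of 13 alternatives and Hcrtr2 (lower) in 5 of the 10 that tested it. Among muscarinic receptor genes Chrm2 (1.62 ± 0.12) and Chrm1 (1.28 ± 0.19) were higher and Chrm3 (-2.16 ± 0.08) was lower, at 201, 278, 231 and 232 CPM against 1097, 1052, 939 and 1098 CPM. Opioid receptor genes parted likewise, Oprd1 (0.88 ± 0.15) being higher and Oprm1 (-0.63 ± 0.12) lower. Cckbr, a cholecystokinin receptor, was higher by 2.07 ± 0.34 and Drd2, a dopamine receptor, lower (-2.67 ± 0.31), each having passed the filter through 1 kind alone. Cnr1 was lower (-2.51 ± 0.28) even though 1 nucleus of Control 1 held most of its counts there. Of the neuropeptides, 3 of which were tested, the tachykinin gene Tac1 was higher (33.7, 18.9, 29.8 and 27.3 CPM against 6.52, 1.54, 2.57 and 5.58 CPM; 2.75 ± 0.28) and Npy was lower (-3.02 ± 0.20).

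Transcription factor genes of the lineage were 3 higher and 5 lower of 13 tested, but Zeb2 (higher) lost the call in 9 of 13 alternatives and Maf (lower) in 2. Mef2c, known for a role in the maturation of parvalbumin interneurons, was at 823, 753, 991 and 903 CPM against 258, 226, 283 and 198 CPM (1.85 ± 0.08). Ppargc1a, a regulator of mitochondrial genes, differed by 1.14 ± 0.07, while Satb1 (-0.57 ± 0.07), Npas3 (-1.28 ± 0.08), Tox (-2.27 ± 0.14) and Npas1 (-4.07 ± 0.31, passing the filter through Sst-type sums alone) were lower. Of calcium buffer and energy genes 3 of 7 were higher, Ppargc1a and the creatine kinase gene Ckb (0.86 ± 0.13) among them, and the calcium buffer Calb1 was lower (-1.91 ± 0.18). The shares called in the Wnt and R-spondin list (2 of 13 higher and 1 lower) and among the KAT6A complex and related acetyltransferases (1 of 8 higher and 1 lower) were near the 26.2% of all genes. Among these calls Ing5 (lower) was lost in 9 of 13 alternatives, Fzd3 (lower) in 4 and Wnt5a (higher) in 3. The R-spondin receptor Lgr4 was at 0.63 ± 0.11, Kat6b at 0.39 ± 0.08 and Kat6a at -0.02 ± 0.12 (edgeR adjusted p = 0.93). None of 12 mitochondrial or abundant cytoplasmic RNAs passed the test, though all 12 had a negative difference, from -0.42 to -0.03 with a median of -0.18. Of 3 immediate early genes tested 1, Nr4a1, was lower, and it lost the call in 2 of 12 alternatives.

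Among all genes at 20 CPM or more in the higher kind and in the same direction in all 4 libraries, the largest positive differences were for 4930470O06Rik, a gene with no known function (5.03 ± 0.50), Zbtb7c, a zinc finger factor (4.49 ± 0.28), and Aox3, an aldehyde oxidase (4.39 ± 0.46). Next came the heparan sulphate enzyme Hs3st2 (4.23 ± 0.35), the netrin receptor Unc5b (4.15 ± 0.39), the matrix protein Fras1 (4.12 ± 0.16), the phosphodiesterase Pde11a, Mctp2, the protease Tll1 (4.04 ± 0.13), Syt2, the GDNF receptor Gfra1 (3.91 ± 0.17) and Fam129a. Tll1 was at 383, 427, 413 and 322 CPM against 30.0, 22.3, 16.1 and 25.5 CPM, the groups being more than 10 times apart. Of the 12 genes, 4930470O06Rik, Aox3, Hs3st2, Unc5b and Fam129a passed the filter through parvalbumin-type sums alone. Unc5b, a chandelier marker, came from 17, 12, 19 and 18 nuclei rather than from all members. Among the largest negative differences were those of the laminin gene Lama4 (-5.06 ± 0.26), the G protein regulators Rgs6 (-4.80 ± 0.22) and Rgs9, Gm28175, the mannosidase Man1a, Gm49678, Ptgfrn, Reln (-4.14 ± 0.26), Plpp4, Npas1 and Stac. Lama4, Rgs9, Ptgfrn, Npas1 and Stac passed through Sst-type sums alone. Rgs6 was at 16.6, 7.57, 46.0 and 18.0 CPM in parvalbumin-type nuclei and at 704, 554, 523 and 720 CPM in Sst-type nuclei.

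**Figure D2:**
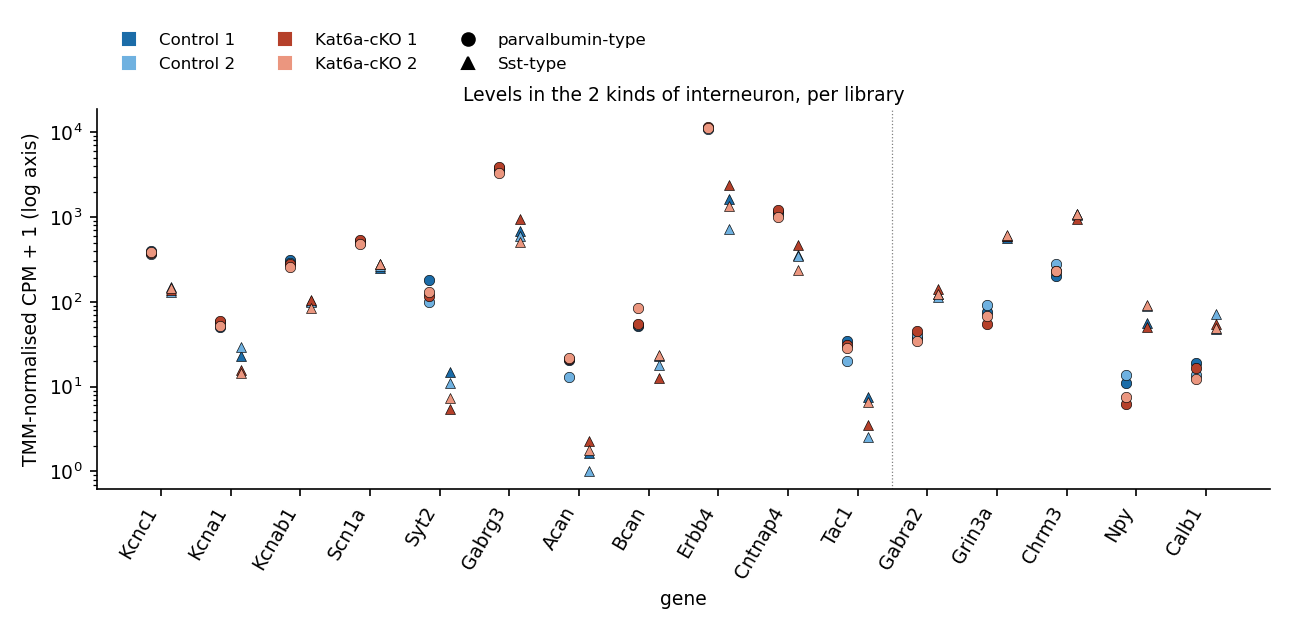
TMM-normalised CPM plus 1 on a log axis for 16 genes of the lists in parvalbumin-type (circles) and Sst-type (triangles) nuclei, 1 point per library. The 11 genes left of the dotted line were higher in parvalbumin-type nuclei in every library, as with Kcnc1 at 369 to 393 against 131 to 150 CPM, and the 5 to its right were lower. Acan passed the filter on low counts through parvalbumin-type sums alone.

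The members were not uniform. Variation among nuclei was measured as the variance of Pearson residuals within a library, which is near 1 for counting noise alone, and the median over 5963 genes of at least 20 CPM was 1.23 (95th percentile 4.21). Kcnip4, a potassium channel interacting protein, was the most variable gene at a median of 113 over the libraries, with 81.4, 126, 116 and 110. Its median level was 1.61, 1.05, 1.20 and 1.16 UMIs per 10000, while the highest nucleus of each library reached 181, 257, 211 and 226 per 10000. It was found in 59, 42, 66 and 60 nuclei, so most members held some and a minority held very much. In all 4 libraries the spread had this form.

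The 15 most variable genes included Kcnip4, the sarcoglycan Sgcz, the adhesion genes Il1rapl2, Ncam2, Cntn5 and Kirrel3, the receptor phosphatase Ptprt, the heparan sulphate enzyme Hs6st3, Zfp804b, the semaphorin Sema6d and the phosphodiesterase Pde4d. Pde4d was found in every member, at a median of 12.5, 13.5, 13.0 and 11.1 and a highest value of 89.2, 87.1, 88.5 and 113 UMIs per 10000. Slc1a2, Gpc5 and St18, which glial cells are known to express, and Adarb2 were the other 4. The 3 highest nuclei of a library held 41.7% to 86.9% of the Gpc5 counts, 63.6% to 98.2% of those of Adarb2 and 30.2% to 57.8% of those of Sema6d. A single nucleus held 34.9%, 62.9%, 45.0% and 69.5% of the Slc1a2 counts and 52.9%, 33.3%, 68.4% and 86.6% of the St18 counts. Erbb4 also had a higher residual variance than most genes, at 10.1, though this measure grows with level for the same relative spread. It ran from 1.07 to 183 UMIs per 10000 in Control 1 with 10th and 90th percentiles of 61.4 and 153. Unlike Kcnip4 it was above 0 in every member. The RNA-binding protein gene Rbfox1 had a residual variance of 3.82.

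Some of these genes were high in the same nuclei and others in different ones. Spearman's rank correlation between levels per nucleus is given as a description for each library, over 69, 61, 80 and 78 nuclei that share a library and differ in depth. Kcnip4 and Kirrel3 had a positive correlation of 0.54, 0.51, 0.45 and 0.38. Kcnip4 and Il1rapl2 had a negative correlation of -0.51, -0.45, -0.45 and -0.38, and Kcnip4 and Ncam2 one of -0.43, -0.30, -0.38 and -0.42. Sgcz and Pde4d had a positive correlation of 0.45, 0.61, 0.55 and 0.49, and Ncam2 and Pde4d had 0.51, 0.32, 0.56 and 0.51. The pattern was 1 set with Kcnip4 and Kirrel3 high and another with Ncam2, Pde4d and Il1rapl2 high, with the same signs in all 4 libraries. In all, 43 of the 66 pairs among 12 genes had the same sign in all 4 libraries. Among the pairs that did not were Sgcz and Kirrel3, at -0.42, -0.27, 0.04 and 0.06. Of the chandelier markers, Vipr2 was at 1.24 to 2.63 CPM and Cpne5 at 1.85 to 6.19 CPM. All 4 of them, Unc5b and Pthlh included, summed to 39.0, 37.2, 44.9 and 56.5 CPM in members. No set was given a cell type name.

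**Figure D3:**
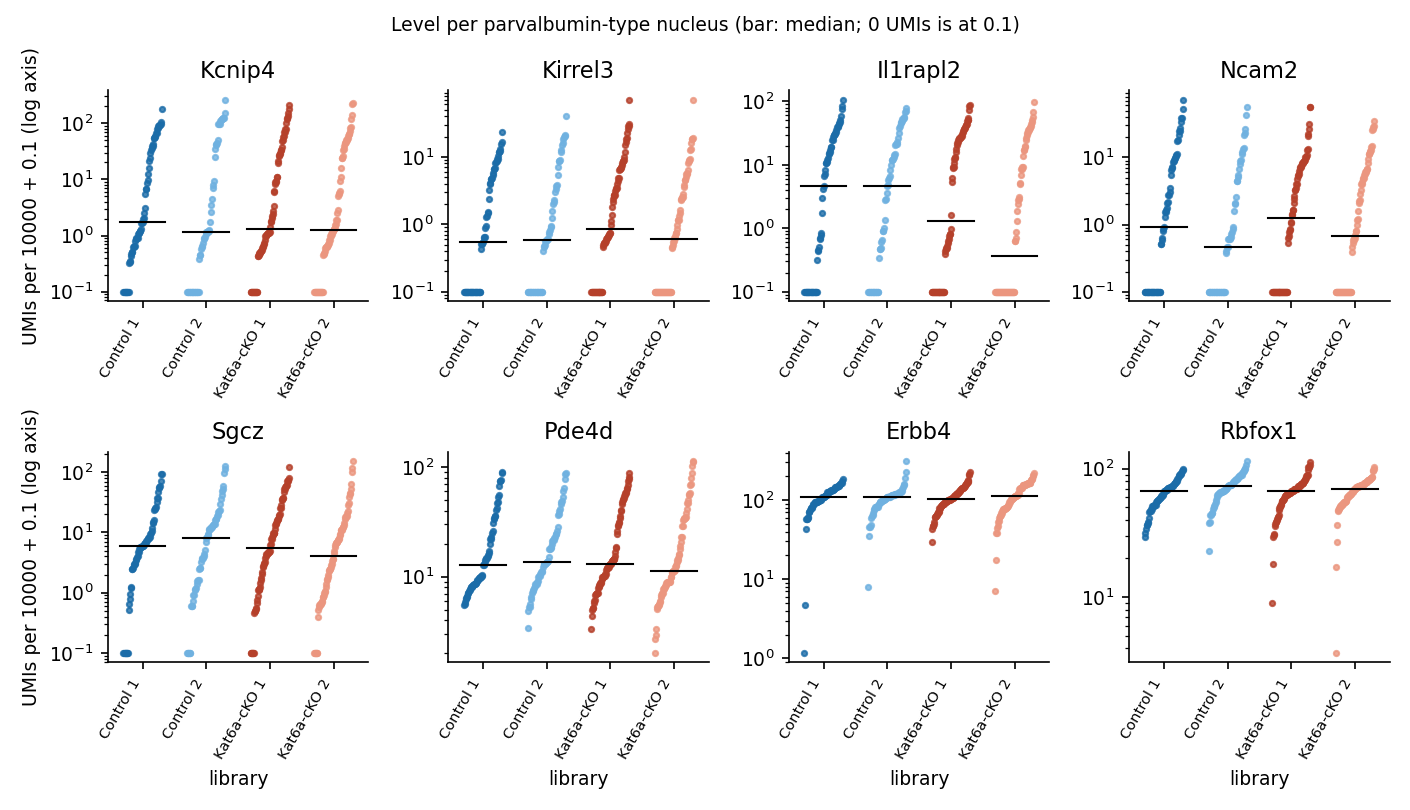
UMIs per 10000, plus 0.1 on a log axis, of 8 genes in each parvalbumin-type nucleus, ordered within each library, with a bar at the library's median. Kcnip4, Kirrel3, Il1rapl2 and Ncam2 run from 0 to high values within every library, for Kcnip4 up to 181 to 257, while Erbb4 and Rbfox1 are above 0 in every nucleus.

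The share of parvalbumin-type nuclei among barcodes of at least 5000 UMIs was 0.836%, 0.766%, 0.948% and 0.986%. Both Kat6a-cKO values lay above both Control values, with means of 0.801% ± 0.049 and 0.967% ± 0.027 (SD, n = 2) and a difference of 0.166 percentage points. The exact permutation test, two-sided, gave p = 0.333, the smallest that 2 against 2 libraries allow. Of nuclei with at least 3 Gad1 and Gad2 UMIs the share was 10.4%, 9.38%, 10.7% and 11.7%. With at least 2 Pvalb UMIs the shares were 0.557%, 0.440%, 0.486% and 0.632%, so that the groups overlapped and the difference was 0.0605 percentage points (exact permutation p = 0.667).

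The comparison of Kat6a-cKO with Control asks whether parvalbumin-type interneurons differ in mice whose excitatory neurons are the target of the deletion. Kat6a itself stood at 71.3, 51.2, 71.7 and 68.4 CPM after TMM scaling in these nuclei, a log2 change of 0.18 ± 0.18 (edgeR adjusted p = 0.975). Counts over the whole gene cannot show the loss of an exon, and in excitatory nuclei Kat6a was at 72.2, 73.7, 65.7 and 68.3 CPM. With edgeR, 3 of 9607 genes tested (0.0312%) were higher in Kat6a-cKO and 0 were lower, and 522 had an unadjusted p under 0.05. DESeq2 called 2 of these 3, Hs3st4 and Slc1a2. The count was 11 with members of at least 2 Pvalb UMIs, 7 without doublets called by Scrublet, 6 without the 15 nuclei that carried other cell types' markers, and 9 without the highest nucleus of each gene. It was 59 without Control 1, 83 without Control 2, 54 without Kat6a-cKO 1 and 54 without Kat6a-cKO 2, where the lone library of a group was assumed to vary like the other group. The direction was mixed in these alternatives, with 5 higher and 6 lower at 2 or more Pvalb UMIs, 36 and 23 without Control 1, and 24 and 59 without Control 2.

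Hs3st4, which encodes a heparan sulphate sulfotransferase, rose most, with Control sums at 10.7 and 27.8 CPM and Kat6a-cKO sums at 124 and 121 CPM. The groups were well apart, with a log2 change of 2.71 ± 0.26 (edgeR adjusted p = 0.000742), and the change was 2.14 without Control 1 and 3.51 without Control 2. The gene lies at 123982869-124398989 on chromosome 7 (plus strand, GRCm38 annotation), where 3 other genes overlap it. Few nuclei carried it: 12, 7, 21 and 23 held at least 1 UMI, and 0, 1, 5 and 5 held at least 10. The 5 highest nuclei held 65, 34, 33, 22 and 16 UMIs in Kat6a-cKO 1 and 74, 27, 26, 12 and 10 in Kat6a-cKO 2, against highest values of 4 and 25 in Control 1 and Control 2. In Kat6a-cKO 1 the nuclei with 65, 34 and 33 Hs3st4 UMIs held 18, 1 and 0 of the chandelier marker Unc5b. The nucleus with 25 in Control 2 held 5 of Unc5b. Whether the number of such nuclei had a part in the result was not tested. Leaving out the highest nucleus of each library gave 3.15 (edgeR adjusted p = 1.7e-06). Excitatory nuclei held far more, at 1541, 1945, 2066 and 1957 CPM, and near-empty droplets held 211, 243, 385 and 382 CPM, which also stood higher in Kat6a-cKO; the part of this free RNA in the result was not tested. Sst-type nuclei held Hs3st4 at 49.6, 46.2, 105 and 94.1 CPM, and the difference in change between the kinds was 1.68 ± 0.32 (edgeR adjusted p = 0.188). That difference passed the threshold without the highest nucleus of each library (2.81, edgeR adjusted p = 0.0091).

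Slc1a2, the main glutamate transporter of astrocytes, was at 54.2, 67.0, 158 and 123 CPM, both Kat6a-cKO values being above both of Control, a log2 change of 1.22 ± 0.17 (edgeR adjusted p = 0.0209). Single nuclei held 30 of 86, 56 of 89 and 130 of 187 counts in Control 1, Control 2 and Kat6a-cKO 2, and a pair held 112 and 59 of 249 in Kat6a-cKO 1. At least 1 Slc1a2 UMI was found in 29, 22, 43 and 41 nuclei. Without the highest nucleus of each library 56, 33, 137 and 57 counts were left. The call was lost without the highest nucleus of each library (1.02, adjusted p = 0.492), without nuclei that carried other cell types' markers (0.58, adjusted p = 0.776) and with at least 2 Pvalb UMIs (0.22, adjusted p = 0.983), all by edgeR. The 4 astrocyte markers summed to 66.2, 14.9, 33.8 and 43.4 CPM in members, with Aqp4 at 0.744 to 8.66 CPM, and did not follow the groups. The 3 oligodendrocyte precursor markers did, at 4.95, 2.23, 16.0 and 8.55 CPM. Gpc5 stood at 22.3, 73.7, 89.2 and 106.5 CPM, and the nuclei with 30, 56, 112, 59 and 130 Slc1a2 UMIs held 11, 52, 46, 68 and 129 of Gpc5. The part of these markers in the result was not tested. Near-empty droplets held Slc1a2 at 562, 464, 752 and 635 CPM, the higher values being those of Kat6a-cKO, and their part in the result was not tested.

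Gm32647, a long non-coding RNA of no known function at 94042691-94709171 on chromosome 7 (plus strand), was at 29.0, 33.1, 73.0 and 83.5 CPM, again with no overlap. Its log2 change was 1.34 ± 0.19 (edgeR adjusted p = 0.0209), with 16, 18, 26 and 23 nuclei holding at least 1 UMI, 4 other annotated genes overlapping it, and no nucleus above 41 UMIs. The call was lost with DESeq2 (adjusted p = 0.0756) and with at least 2 Pvalb UMIs (edgeR 0.27, adjusted p = 0.974). Gm32647 was at 165, 172, 350 and 271 CPM in Sst-type nuclei, and near-empty droplets held 49.2, 52.7, 87.4 and 86.4 CPM. The difference in change between the kinds was 0.47 ± 0.23 (edgeR adjusted p = 0.972).

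**Figure D4:**
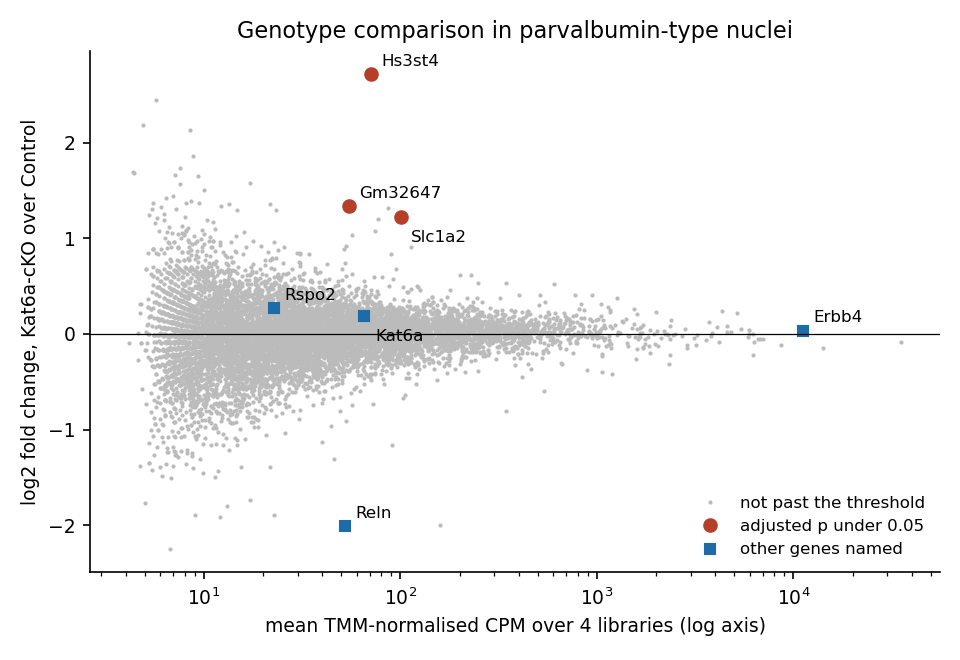
Log2 fold change of Kat6a-cKO over Control against mean TMM-normalised CPM (log axis) for the 9607 genes tested in parvalbumin-type nuclei. Hs3st4, Slc1a2 and Gm32647 (red) passed the threshold, while Kat6a, Rspo2, Erbb4 and Reln (blue squares) did not.

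Genes that missed the threshold but were next by p, at 20 CPM or more and with no overlap between groups, are given as values. Arhgap6, a GTPase activating protein, had Control values of 70.0 and 61.0 CPM and Kat6a-cKO values of 23.5 and 29.6 CPM (-1.31 ± 0.21, edgeR adjusted p = 0.0541). It passed the threshold in 11 of 13 alternatives, with changes between -1.47 and -1.15, and not with DESeq2 (adjusted p = 0.217) or without TMM factors. Reln was at 103, 64.0, 33.6 and 7.89 CPM (-2.01 ± 0.38, edgeR adjusted p = 0.129), from 12, 18, 15 and 7 nuclei, with 2 nuclei of 49 and 46 UMIs in Control 1. The nucleus of 49 Reln UMIs was the one that held 762 UMIs of Adarb2 and 65 of Cnr1. In Control 1 the nuclei of 24 and 13 Reln UMIs held 2 and 6 of Erbb4, while that of 46 held 319. The part of such nuclei in the fall of Reln was not tested. Reln passed the threshold without the highest nucleus of each library (-2.00, edgeR adjusted p = 0.037), without nuclei carrying markers of other types (-2.26, 0.00027), with at least 2 Pvalb UMIs (-2.69, 0.00082) and when any 1 library was left out, with changes between -3.41 without Kat6a-cKO 1 and -1.32 without Kat6a-cKO 2. It passed in 9 of 13 alternatives, and not with DESeq2 (adjusted p = 0.9999), without TMM factors, without Scrublet doublets or with at least 8000 UMIs. The 4 Lamp5-type markers other than Reln summed to 19.2, 20.1, 12.9 and 11.2 CPM in members and the Sst-type markers to 161, 171, 126 and 149 CPM, and their part in the result was not tested. In Sst-type nuclei Reln was level at 883, 879, 881 and 870 CPM, and the difference in change was -1.99 ± 0.35 (edgeR adjusted p = 0.188). DESeq2 called that difference (-2.13, adjusted p = 0.046), and edgeR called it with at least 2 Pvalb UMIs (-2.67, adjusted p = 0.00088), without nuclei carrying markers of other types (-2.22, 0.00046) and without the highest nucleus (-1.97, 0.027). Olfm3, a secreted synaptic protein, Man1a and the 14-3-3 gene Ywhab had log2 changes of -1.17, -1.90 and -0.91 (edgeR adjusted p = 0.0811, 0.155 and 0.257). Olfm3 passed the threshold without nuclei carrying markers of other types (-1.22, edgeR adjusted p = 0.015) and without the highest nucleus (-1.11, 0.045). Man1a passed it without Scrublet doublets (-2.65, edgeR adjusted p = 0.026), and DESeq2 called neither gene. The calcium channel subunit genes Cacna2d1 and Cacna1e had changes of 1.20 and 1.03 (edgeR adjusted p = 0.0811 for each). Both passed the threshold without the highest nucleus of each library (1.18 and 1.37, edgeR adjusted p = 0.045 and 0.022) and not with DESeq2. Over the 13 alternatives the change ran from 0.27 to 1.48 for Cacna2d1 and from 0.35 to 1.37 for Cacna1e. The sialyltransferase St6galnac3, Nyap2 and the contactin Cntn4 had changes of 0.83, 0.62 and 0.52 (edgeR adjusted p = 0.0811, 0.129 and 0.14), and that of Cntn4 ran from 0.43 to 1.11. With at least 2 Pvalb UMIs Nyap2 (0.77, edgeR adjusted p = 0.046) and Cntn4 (1.11, 0.00033) passed the threshold. Nyap2 also passed without Scrublet doublets (0.68, edgeR adjusted p = 0.046), and DESeq2 called none of these genes. Olfm3, Man1a, Ywhab, Cacna2d1, Cacna1e, St6galnac3, Nyap2 and Cntn4 each also passed in alternatives that are not listed here. Libraries of the groups did not overlap in 34.3% of all genes tested (17.1% higher, 17.2% lower in Kat6a-cKO).

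**Figure D5:**
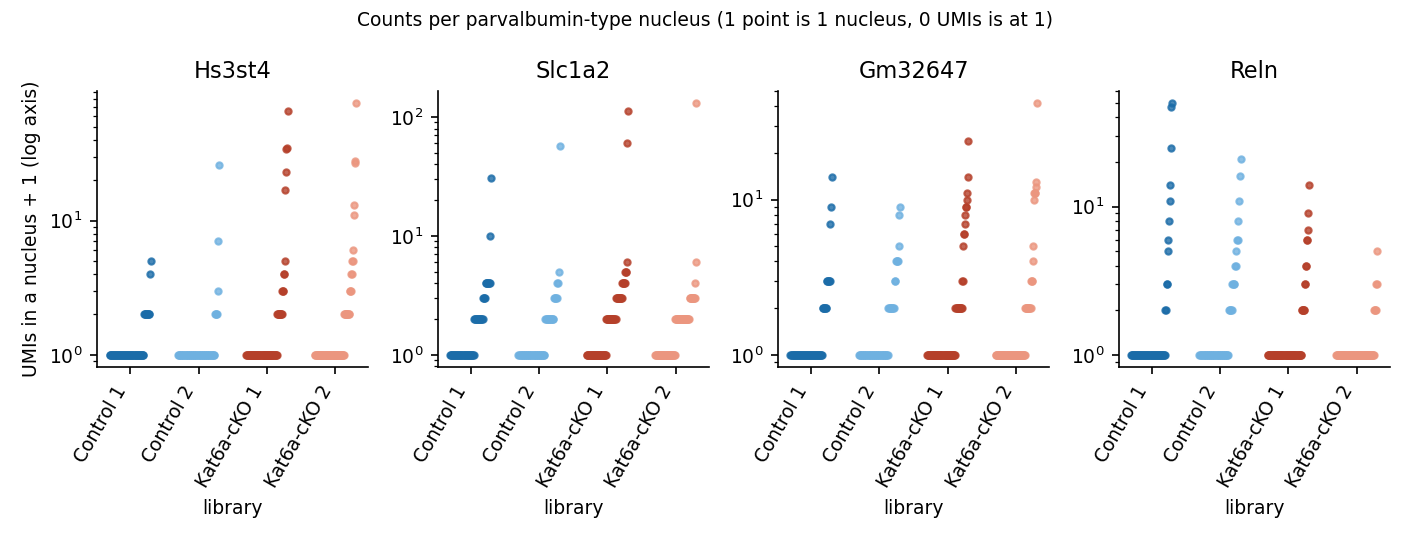
UMIs plus 1 on a log axis in each parvalbumin-type nucleus, ordered within each library, for the 3 genes past the threshold and Reln. Nuclei with 0 UMIs are plotted at 1, and for Hs3st4 the 5 highest nuclei of each Kat6a-cKO library hold 10 to 74 UMIs.

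With the filter on low counts and no replicate block, no gene of the lists passed the edgeR test with genotype on all members of the 4 libraries. Erbb4 changed by 0.03 ± 0.06 (edgeR adjusted p = 0.989). Of the 236 genes in the 14 lists 229 were not used to choose nuclei, 166 of these were tested and 0 were called with edgeR. Of the 166, 26 (15.7%) had an unadjusted p under 0.05, as did 5.43% of all genes tested. The lists were chosen with earlier results of these data known, so the 15.7% is a description only. With members of at least 2 Pvalb UMIs edgeR called Npas3 (-0.80, adjusted p = 0.023) and Kcnip4 (-0.58, adjusted p = 0.023), and it called 8 list genes with no filter on low counts and 3 to 7 with each library left out. On all members, with the filter on low counts and no replicate block, the lowest edgeR adjusted p among the 166 list genes was 0.257. The median log2 change was -0.03 over 21 fast-spiking channel genes, 0.09 over 13 GABA receptor genes, -0.09 over 22 glutamate receptor genes and 0.30 over 8 perineuronal net genes, against -0.0005 over all genes. In the perineuronal net list 5 of 8 genes had both Kat6a-cKO libraries above both Control libraries (17.1% of all genes did), as with Adamts15 at 0.67 ± 0.20 (edgeR adjusted p = 0.694). All 12 mitochondrial and abundant cytoplasmic RNAs tested had a negative change, with a median of -0.44, and in 9 of the 12 the Kat6a-cKO values lay wholly below those of Control (as did 17.2% of all genes). Such RNAs are known to reach nuclei preparations as free RNA, and Tmsb4x averaged 7973 CPM in near-empty droplets against 215, 274, 198 and 174 CPM in members; the part of free RNA in these changes was not tested.

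Rspo2, a secreted amplifier of Wnt signalling, was at 18.9, 22.6, 24.1 and 25.6 CPM, a log2 change of 0.27 ± 0.25 (edgeR adjusted p = 0.975). These values were near those of near-empty droplets, 25.2, 21.2, 30.6 and 23.6 CPM. Neurod6, the gene at which NEX-cre sits, was at 12 CPM or less in the members and changed by -1.22 ± 0.48 (edgeR adjusted p = 0.883), while near-empty droplets held 258, 338, 152 and 206 CPM. None of the 13 Wnt or R-spondin genes tested passed, Rspo2 included, with changes from -0.996 to 0.27.

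The difference in genotype change between parvalbumin-type and Sst-type nuclei was tested directly. With edgeR 0 of 10354 genes (0.00%) passed, 520 had an unadjusted p under 0.05, and DESeq2 called 1 gene, Reln. The smallest numbers of members were 61 nuclei in Control 2 and 69 in Control 1, so changes in genes of few nuclei were not well measured at this depth.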

How the data were processed

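Nuclei of the hippocampus were sequenced in 4 libraries, 2 per group, and the authors deposited whole-number UMI counts per gene and barcode. Per the submitters' processing notes Seurat 4.0.1 and mm10 were used; the aligner, the filters and strand of counting are not given in the sources used here. Of 55422 gene IDs, 55154 were given a symbol, and positions are those of GRCm38.

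Counts of the chosen nuclei were summed per library and tested with edgeR 4.0.16 in R 4.3.3 (quasi-likelihood test, TMM factors, genes kept by filterByExpr, Benjamini-Hochberg adjusted p under 0.05). DESeq2 1.42.0 was an alternative. Genes used to choose the nuclei were left out of the lists and their changes are not reported. Shares were compared with exact permutation tests. Free RNA was read from barcodes of 100 to 900 UMIs. Doublets called by Scrublet (expected rate 0.06; 6 of the 288 members) were left out only as an alternative. Library totals and member counts limit precision to the depths given above, and the limits given for a count of 0 cover counting error only.

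The members and gene lists were chosen with earlier results of these data known. Genes were named when they passed the genotype test, with the 5 of smallest p per direction at 20 CPM or more without overlap, and Kat6a, Neurod6, cre and Rspo2 always. For the Sst-type comparison these were the 12 of largest difference per direction and list members, and among nuclei the 15 most variable. Alternatives changed the test, scaling, filter, UMI and Pvalb minimums, doublets, nuclei with markers of other types, the highest nucleus and each library. Some genes that the naming rule covers are not reported here.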

Additional observations from a re-analysis of the deposited data

How the results depend on the processing

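The number of genes changed with genotype (3) was 68 with no filter on low counts, 11 with at least 2 Pvalb UMIs, 7 without Scrublet doublets, 6 without nuclei carrying markers of other types, 9 without the highest nucleus of each gene, and 54 to 83 with each library left out. The last 2 choices on nuclei (markers of other types, highest nucleus) were added after seeing the data. Deviations of same-numbered libraries had a correlation of 0.0084 over 3350 genes. Sums of 61 to 80 nuclei also vary with the nuclei sampled, so this cannot decide whether replicate numbers pair the libraries. A replicate block gave 33 genes (19 higher and 14 lower), with the list genes Grm7, Actb and Nrg1 among them. Genes differing from Sst-type nuclei (2499) numbered 1397 with DESeq2. Genes whose genotype change differed between kinds (0) numbered 1 with DESeq2, 38 with no filter, 11 with at least 2 Pvalb UMIs, 1 without doublets, 1 without nuclei carrying markers of other types, 4 without the highest nucleus, and 14 to 57 with each library left out. The change of Kat6a was -0.063 with at least 2 Pvalb UMIs and ran from -0.017 to 0.46 with each library left out, and that of Rspo2 was -0.026 with at least 2 Pvalb UMIs. The cause was not tested for any of these. With 61 to 80 nuclei and 2 libraries per group, genes of few nuclei were measured with little precision.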

Other observations

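A further 59 nuclei (15, 18, 13 and 13 in Control 1, Control 2, Kat6a-cKO 1 and Kat6a-cKO 2) held at least 1 Pvalb UMI and at least 2 Sst UMIs and met the other conditions. Some hippocampal interneurons, such as bistratified cells, are known to express both genes. Erbb4 was at 6142, 3299, 3749 and 3599 CPM in these nuclei, between the members at 10784 to 11212 CPM and Sst-type nuclei at 719 to 2310 CPM. Grin3a averaged 329 ± 95.1 CPM (SD, n = 4 libraries), between 70.1 ± 16.2 CPM in members and 590 ± 22.8 CPM in Sst-type nuclei. Reln averaged 331 ± 136 CPM, between 51.3 ± 40.4 and 873 ± 11.2 CPM in the same order. Scrublet called 1 of the 59 a doublet, and their median depth of 19085 to 25154 UMIs was above that of Sst-type nuclei.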
